A study of Mus musculus with 2 samples.

Results

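Cytochrome P450 genes were followed in mouse small-intestinal organoids cultured with or without RankL. The set was every gene whose symbol begins with Cyp and a digit and whose RefSeq accession stood beside a probe on the arrays. It held 81 genes on 109 probes, out of 32235 genes or accessions probed in all. Both cultures came from the small intestine of wild-type mice, and strain, age and number of animals are not known here. Such organoids are hollow epithelial bodies that intestinal crypts form in culture. All were fed EGF, R-spondin and Noggin, and the only difference the labels give is that one culture also received RankL. RankL, the ligand of the receptor RANK, was recombinant mouse protein at 50 to 200 ng/ml with fresh medium given on day 2 and day 5. The study asked how RankL acts on the formation of M cells, the antigen-sampling cells over Peyer's patches. Which dose these RNAs saw, and when they were harvested, is not known here. Each RNA was hybridised on 2 dual-colour arrays, the dyes being swapped between them (RankL in Cy3 on array 1). With 1 RNA pair, and so 1 replicate, there was no statistical test and no p-value. Every ± below is the SD of the 2 arrays and leaves out the spread between cultures.

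P450 enzymes are haem proteins that insert an oxygen atom into drugs, dietary compounds, fatty acids, steroids and vitamins. Those of the endoplasmic reticulum receive their electrons from cytochrome P450 oxidoreductase (Por), and those of mitochondria from ferredoxin. In the small intestine the enterocytes use them to break down foreign compounds before these reach the liver. Many of the genes are switched on by nuclear receptors and by the aryl hydrocarbon receptor, which bind such compounds. Mouse P450 genes often lie side by side as young duplicates, so members of a subfamily can be close to identical.

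Upstream sequences are shown first for 3 sets of related genes, chosen because near copies and neighbours can be compared within each, and for Cyp1a1, chosen as a classical target of the aryl hydrocarbon receptor. Other genes with large differences, such as Cyp3a25, Cyp2s1 and Cyp2d26, are not shown. Each run gives the 200 bases before the transcription start, 5′ to 3′, from RefSeq on GRCm38.p6. Capitals mark TATAAA (the letters of a TATA box, wherever they stand), CAAAGTCC (the first letters of a site of the receptor Hnf4a), AGGTCA (the nuclear receptor half-site) and GCGTG (the core bound by the aryl hydrocarbon receptor), each searched on both strands. The pair that was higher with RankL is Cyp2a4 (plus strand, chr7:26306992-26307191) and Cyp2a5 (plus strand, chr7:26835139-26835338).
Cyp2a4: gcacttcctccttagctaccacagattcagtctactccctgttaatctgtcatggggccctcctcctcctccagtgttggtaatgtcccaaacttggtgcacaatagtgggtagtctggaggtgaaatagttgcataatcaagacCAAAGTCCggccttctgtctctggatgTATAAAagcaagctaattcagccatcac
Cyp2a5: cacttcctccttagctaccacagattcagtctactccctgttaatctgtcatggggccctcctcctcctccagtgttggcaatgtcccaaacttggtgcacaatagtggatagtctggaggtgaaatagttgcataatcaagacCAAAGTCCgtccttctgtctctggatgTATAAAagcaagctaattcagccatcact

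Over the 249 bases that aligned, 98.4% were identical between the upstream sequences of Cyp2a4 and Cyp2a5. Both held TATAAA, starting 28 and 29 bases before the start, and CAAAGTCC, starting 55 and 56 bases before it. Next are 3 adjacent genes of the Cyp2c subfamily, of which Cyp2c65 (plus strand, chr19:39060806-39061005) and Cyp2c66 (plus strand, chr19:39113698-39113897) were lower with RankL and their neighbour Cyp2c55 (plus strand, chr19:39006819-39007018) was not.
Cyp2c55: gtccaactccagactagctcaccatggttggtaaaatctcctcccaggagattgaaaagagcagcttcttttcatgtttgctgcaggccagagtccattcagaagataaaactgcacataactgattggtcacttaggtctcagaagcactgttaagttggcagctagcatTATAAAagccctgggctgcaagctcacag
Cyp2c65: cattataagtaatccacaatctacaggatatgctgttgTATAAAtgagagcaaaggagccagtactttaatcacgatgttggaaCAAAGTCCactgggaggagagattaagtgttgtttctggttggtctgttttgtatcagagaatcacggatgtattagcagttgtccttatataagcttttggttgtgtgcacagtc
Cyp2c66: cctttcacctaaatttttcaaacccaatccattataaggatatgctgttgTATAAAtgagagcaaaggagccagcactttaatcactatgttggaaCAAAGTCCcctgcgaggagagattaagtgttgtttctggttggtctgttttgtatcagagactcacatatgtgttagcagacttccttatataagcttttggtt

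Cyp2c65 and Cyp2c66 were 94.1% identical over 221 aligned bases, and Cyp2c55 shared 64.0% and 62.6% of its aligned bases with them. The latter values lie within the range of shown pairs from different subfamilies, from 49.3% (Cyp2c66 and Cyp2b10) to 65.4% (Cyp2a5 and Cyp2b13). TATAAA started 162 bases before the start in Cyp2c65 and 150 in Cyp2c66, far from the usual place of a TATA box, and 29 bases before it in Cyp2c55. CAAAGTCC stood in the windows of Cyp2c65 and Cyp2c66, starting 116 and 104 bases before the start, and not in that of Cyp2c55. The Cyp2b genes that were lower with RankL are Cyp2b9 (plus strand, chr7:26173209-26173408), Cyp2b10 (plus strand, chr7:25897458-25897657) and Cyp2b13 (plus strand, chr7:26061295-26061494).
Cyp2b9: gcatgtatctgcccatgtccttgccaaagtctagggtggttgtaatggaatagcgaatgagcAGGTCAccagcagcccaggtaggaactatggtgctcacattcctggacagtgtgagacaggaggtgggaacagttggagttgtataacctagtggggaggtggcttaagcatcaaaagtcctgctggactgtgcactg
Cyp2b10: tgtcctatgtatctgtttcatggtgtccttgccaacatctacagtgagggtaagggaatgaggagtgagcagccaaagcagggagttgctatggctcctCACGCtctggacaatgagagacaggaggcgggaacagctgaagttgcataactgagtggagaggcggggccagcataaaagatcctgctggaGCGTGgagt
Cyp2b13: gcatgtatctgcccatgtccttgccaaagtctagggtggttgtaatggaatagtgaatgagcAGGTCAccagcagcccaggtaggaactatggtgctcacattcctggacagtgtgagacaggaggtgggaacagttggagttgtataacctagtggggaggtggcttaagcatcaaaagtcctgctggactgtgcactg

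Cyp2b9 and Cyp2b13 were 99.2% identical over 250 bases and both held AGGTCA, starting 138 bases before the start. Cyp2b10 shared 75.8% of its aligned bases with each and held GCGTG in 2 places instead. The last is Cyp1a1 (plus strand, chr9:57697413-57697612), whose window held GCGTG once, starting 54 bases before the start, and TATAAA once, 30 bases before it.
Cyp1a1: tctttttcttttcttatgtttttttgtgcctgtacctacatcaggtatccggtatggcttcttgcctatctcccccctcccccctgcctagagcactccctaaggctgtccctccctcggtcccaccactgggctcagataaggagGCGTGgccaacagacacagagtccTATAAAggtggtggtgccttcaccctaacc

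RankL RNA held less of many P450 transcripts and more of a few. A gene counted as measured if at least 1 of the RNAs gave a probe signal well above background on both arrays, which 45 of the 81 genes passed. Because a probe can pass through 1 RNA alone, counts over measured genes are descriptions. A gene was called higher or lower when RankL over untreated, as a log2 ratio averaged over the arrays, reached 1 in size, a 2-fold difference, and at least 0.5 in that direction on each array. By this rule 4 of the 45 genes were higher and 13 lower, and 28 were neither. Among all 12877 measured genes or accessions of the arrays, 5.47% were higher and 2.5% lower, beside 8.89% and 28.9% of the P450 genes. Among the 35 P450 genes with a probe well above background in both RNAs on both arrays, 0 were higher and 12 (34.3%) lower, beside 4.64% and 2.47% of the 11485 genes of the arrays that passed this filter. The median P450 log2 ratio was -0.50 (-0.46 on array 1 and -0.48 on array 2), against 0.01 over all measured genes, and 31 of the 45 ratios lay below 0. With all 81 genes included, dim probes too, the median was -0.03. The median SD between arrays was 0.155. In whole cultures, fewer cells of a type and less RNA per cell cannot be told apart.

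**Figure D1:**
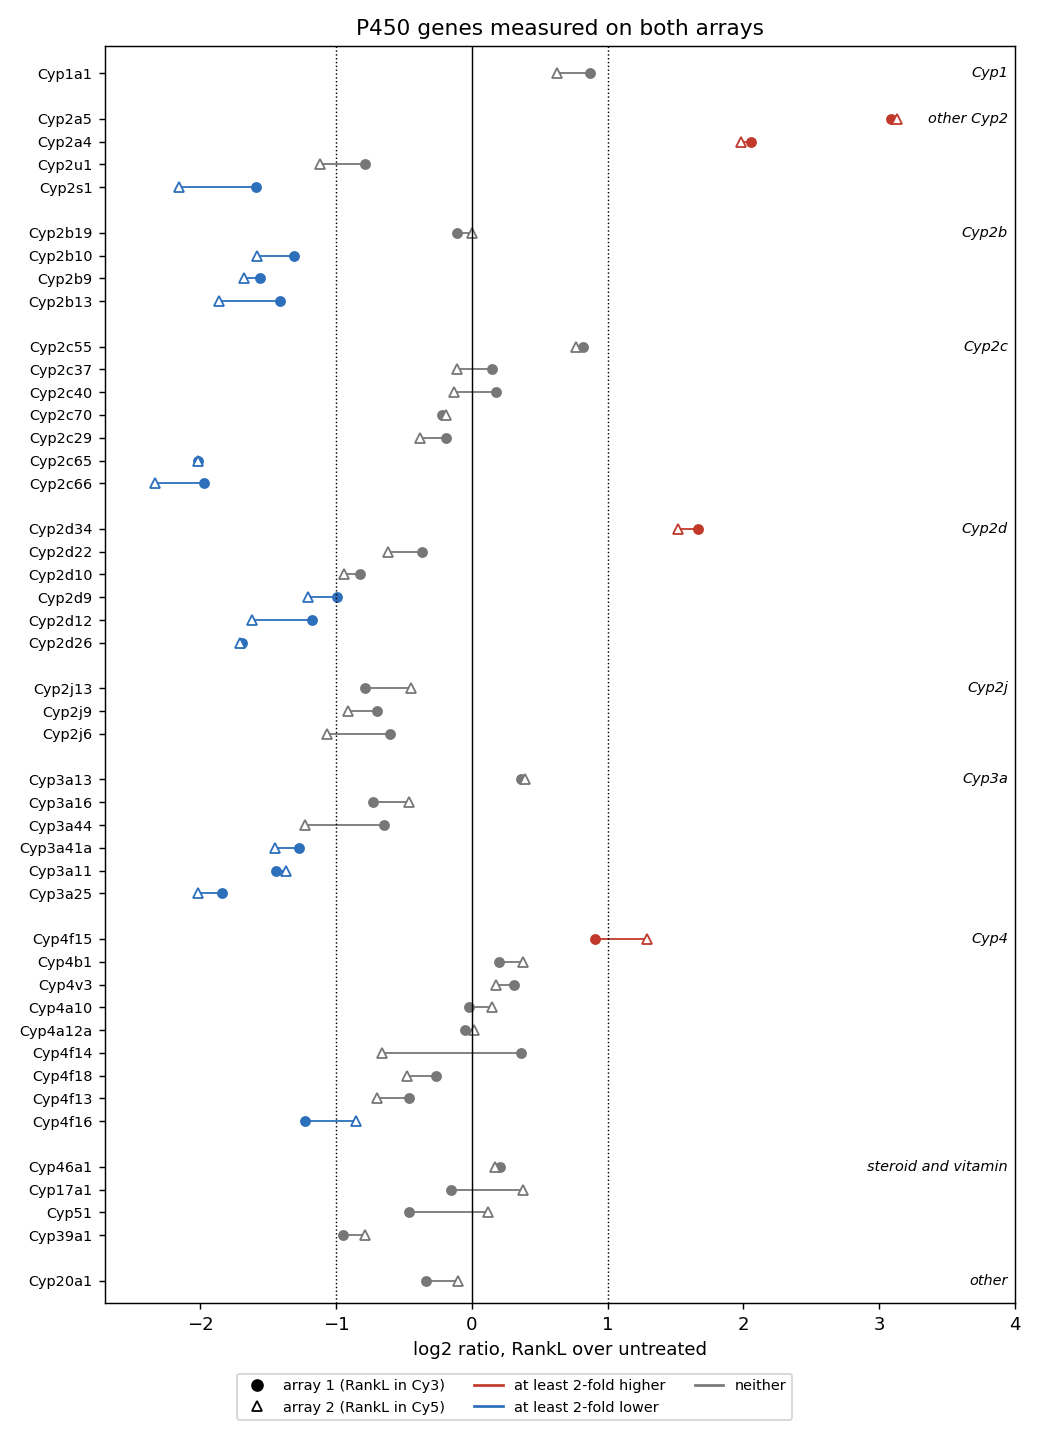
Log2 ratio of RankL over untreated for the 45 measured P450 genes, by subfamily, with filled circles for array 1 and open triangles for array 2. Dotted lines stand at -1 and 1, and the colours show 4 genes higher (Cyp2a5, Cyp2a4, Cyp2d34 and Cyp4f15), 13 lower and 28 neither.

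The gene farthest higher was Cyp2a5, which encodes coumarin hydroxylase, an enzyme that also oxidises nicotine. Its normalized level, a log2 intensity that can be compared only within a probe, was 9.11 and 9.17 in RankL RNA on arrays 1 and 2, and 6.02 and 6.05 in untreated RNA. The untreated signals were not well above background, so the log2 ratio of 3.11 ± 0.029 is read as a bound, at least 7.72-fold higher. A bound here sets the mean level in the brighter RNA against the lowest level that counted as well above background in the other RNA, or against the probe's own level where that was higher. Where the probe's own levels set the bound, it is the ratio itself and is given as a plain fold. A bound covers a single probe and the mean of the arrays, so another probe or a single array can lie below it.

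Cyp2a4, a testosterone hydroxylase and the near copy of Cyp2a5 shown above, was at 7.90 and 7.83 in RankL RNA and at 5.84 and 5.86 in untreated RNA. The log2 ratio was 2.02 ± 0.057, or at least 3.19-fold higher by this probe, again with untreated RNA not well above background. Its other measured probes gave 1.62 and 0.24, and the last of these was well above background in both RNAs on both arrays. A probe of one of these genes may bind transcripts of the other, so the division between Cyp2a4 and Cyp2a5 is uncertain. Cyp2a12 and Cyp2a22, of the same subfamily, were not measured.

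Cyp2d34 was at 8.27 and 8.20 in RankL RNA and at 6.60 and 6.68 in untreated RNA, a log2 ratio of 1.59 ± 0.11 or 3.02-fold, with untreated RNA well above background on 1 of 2 arrays. Cyp4f15, of a subfamily that hydroxylates fatty acids and eicosanoids, was at 7.36 and 7.46 in RankL RNA and at 6.45 and 6.17 in untreated RNA. Its log2 ratio was 1.1 ± 0.27, or 2.14-fold, with untreated RNA not well above background, and array 1 alone gave 0.91. None of the 4 genes was well above background in untreated RNA on both arrays by its brightest measured probe. RankL levels lay above untreated levels on each array for all 4, which the rule itself required.

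**Figure D2:**
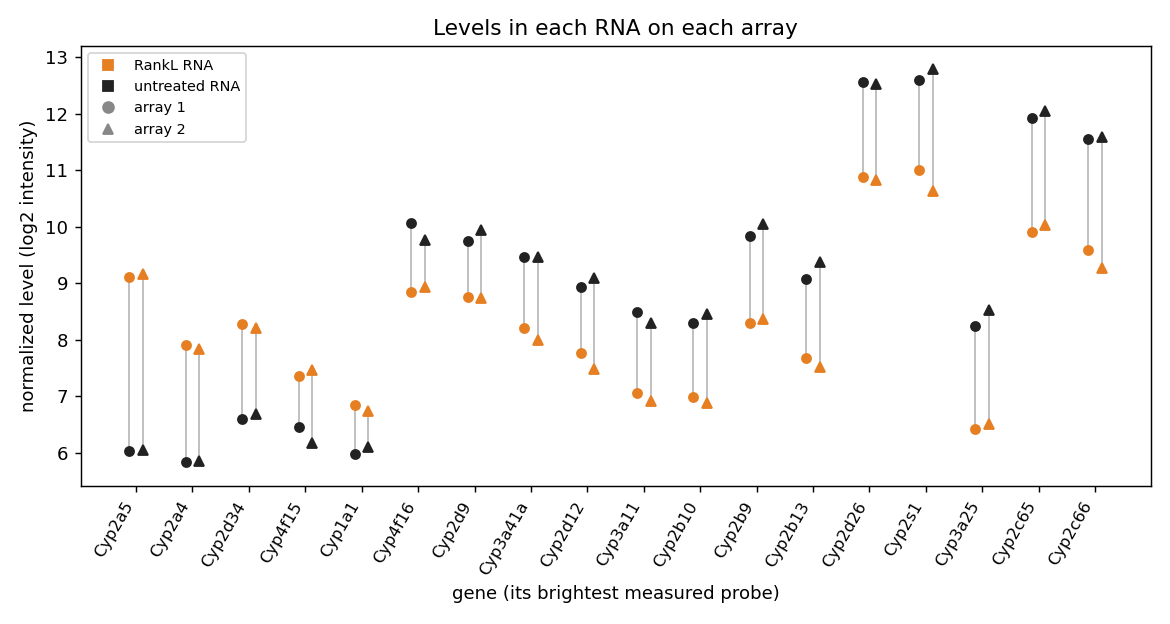
Normalized level (log2 intensity) of the 17 genes that were higher or lower and of Cyp1a1, with orange for RankL RNA, black for untreated RNA, circles for array 1 and triangles for array 2. Levels of different genes come from different probes and have no common scale. In each gene the RNAs stand apart on both arrays, as in Cyp2c65 with 9.90 and 10.03 against 11.92 and 12.05. For the 17 genes the rule itself required this.

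Among the genes lower with RankL, the largest difference was in Cyp2c66, a P450 of the subfamily that oxidises arachidonic acid and drugs. It was at 9.59 and 9.26 in RankL RNA against 11.55 and 11.59 in untreated RNA, a log2 ratio of -2.15 ± 0.26, or 4.44-fold lower. Its neighbour Cyp2c65 was at 9.90 and 10.03 against 11.92 and 12.05, a ratio of -2.02 on each array, or 4.06-fold lower. Both RNAs were well above background for both genes. Given the near identity of Cyp2c65 and Cyp2c66 upstream of their starts, their probes may share signal.

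Other Cyp2c genes did not share this difference in size. Cyp2c55, whose product oxidises arachidonic acid, was at 8.95 in RankL RNA on both arrays and at 8.12 and 8.18 in untreated RNA, a ratio of 0.80 ± 0.039 that fell short of the rule. Cyp2c29 was at -0.28 ± 0.13, Cyp2c40 at 0.02 ± 0.22, Cyp2c37 at 0.02 ± 0.19 and Cyp2c70, a bile acid hydroxylase, at -0.20 ± 0.023. The second probe of Cyp2c40 gave -0.02. The 7 measured Cyp2c genes thus ran from -2.15 to 0.80 with a median of -0.20, and Cyp2c23, Cyp2c38, Cyp2c39 and Cyp2c54 were not measured.

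Cyp2s1, a P450 of epithelia outside the liver that acts on retinoids and eicosanoids, was at 11 and 10.64 in RankL RNA and at 12.59 and 12.80 in untreated RNA. The ratio was -1.88 ± 0.41, or 3.67-fold lower. Its neighbours on the chromosome, the Cyp2b genes, were lower as well. Cyp2b13 was at 7.67 and 7.51 against 9.08 and 9.37, a ratio of -1.63 ± 0.32. Cyp2b9 was at 8.29 and 8.37 against 9.84 and 10.04, a ratio of -1.62 ± 0.083, with a second probe, not well above background in RankL RNA, at -0.64. Cyp2b10, the form induced by phenobarbital through the receptor Nr1i3 in the liver, was at 6.99 and 6.87 against 8.30 and 8.46, a ratio of -1.45 ± 0.19. These are folds of 3.10, 3.07 and 2.73 lower. Given the near identity of Cyp2b9 and Cyp2b13 upstream of their starts, their probes may share signal. The keratinocyte form Cyp2b19 was at -0.06 ± 0.078, and Cyp2b23 was not measured.

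The Cyp3a enzymes are the main drug-oxidising P450s of gut and liver. All 6 genes with a probe were measured, 3 of them lower, none higher, with a median of -1.15. Cyp3a25 was at 6.41 and 6.51 in RankL RNA, not well above background, and at 8.24 and 8.53 in untreated RNA. Its ratio was -1.93 ± 0.13, or 3.81-fold lower, while a second probe, also not above background in RankL RNA, gave -0.69. Cyp3a11, a classical target of the xenobiotic receptor Nr1i2, was at 7.06 and 6.91 against 8.49 and 8.29, a ratio of -1.41 ± 0.046 or 2.65-fold lower. Cyp3a41a was at 8.20 and 8.0 against 9.47 and 9.46, a ratio of -1.36 ± 0.13 or 2.57-fold lower.

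Cyp3a44 and Cyp3a16 were at -0.94 ± 0.41 and -0.59 ± 0.19, short of the rule, and Cyp3a44 was well above background in RankL RNA on 1 of 2 arrays. Cyp3a13, a form abundant in mouse intestine, was the only measured Cyp3a gene above 0. It was at 10.04 and 10.33 in RankL RNA and at 9.68 and 9.94 in untreated RNA, a ratio of 0.37 ± 0.020. Cyp3a11, Cyp3a16, Cyp3a41a and Cyp3a44 are close relatives whose probes may bind one another's transcripts, and their separate values are uncertain.

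The Cyp2d genes, relatives of the human debrisoquine hydroxylase, split in direction. Cyp2d26 was at 10.88 and 10.82 in RankL RNA against 12.57 and 12.53 in untreated RNA, a ratio of -1.70 ± 0.012 or 3.24-fold lower. Cyp2d12 was at 7.76 and 7.48 against 8.94 and 9.10, a ratio of -1.40 ± 0.31 or 2.65-fold lower. Cyp2d9, a testosterone hydroxylase, was at 8.75 and 8.74 against 9.74 and 9.95, a ratio of -1.1 ± 0.16 or 2.14-fold lower, with a second probe at -1.21. Array 1 alone gave -0.99 for Cyp2d9. Cyp2d10 was at -0.88 ± 0.080 (-0.07 by its other probe), and Cyp2d22 at -0.50 ± 0.18, its RankL signal being above background on 1 array. Of the 6 measured Cyp2d genes, 5 lay below 0 and Cyp2d34 above it, and Cyp2d13 was not measured.

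Cyp2j enzymes turn arachidonic acid into epoxides. The 3 measured genes lay below 0 on both arrays but none met the rule, with Cyp2j6 at -0.83 ± 0.33, Cyp2j9 at -0.81 ± 0.15 and Cyp2j13 at -0.62 ± 0.25. A second Cyp2j6 probe gave -0.36, and Cyp2j5 and Cyp2j11 were not measured. The fatty acid hydroxylase gene Cyp2u1 fell just short of the rule at -0.96 ± 0.23, between 7.71 and 7.64 in untreated RNA and 6.92 and 6.52 in RankL RNA. Cyp2ab1, Cyp2e1, Cyp2f2, Cyp2g1 and Cyp2w1 were not measured.

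Most Cyp4 genes, whose products hydroxylate the ends of fatty acids and eicosanoids, did not meet the rule. Besides Cyp4f15, the exception was Cyp4f16 at 8.84 and 8.93 in RankL RNA against 10.07 and 9.77 in untreated RNA. Its ratio was -1.04 ± 0.27, or 2.05-fold lower, with a second probe at -0.57 and -0.85 on array 2 alone. Cyp4f14, which encodes a hydroxylase of leukotrienes and vitamin E, was at 12.81 and 12.44 in RankL RNA and at 12.45 and 13.10 in untreated RNA. The arrays thus disagreed in sign, and its SD of 0.724 around a mean of -0.15 was the widest of all 45 genes. In 7 of the 45 genes the arrays had opposite signs, and such genes cannot meet the rule. Cyp4f13 and Cyp4f18 were at -0.58 ± 0.16 and -0.37 ± 0.16. Cyp4b1, Cyp4v3, Cyp4a10 and Cyp4a12a were at 0.29 ± 0.13, 0.25 ± 0.087, 0.07 ± 0.12 and -0.01 ± 0.048. Cyp4a12b, Cyp4a14, Cyp4a29, Cyp4a31, Cyp4f39 and Cyp4f41-ps were not measured.

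Cyp1a1, which oxidises polycyclic aromatic compounds, was at 6.85 and 6.73 in RankL RNA and at 5.98 and 6.10 in untreated RNA. The untreated signals were not well above background, and the ratio of 0.75 ± 0.17, at least 1.52-fold, fell short of the rule. It was 1.27 with a normexp offset of 16 and 3.10 in the scanner software's ratios, both past the rule. Cyp1a2 and Cyp1b1 were not measured.

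Steroid and vitamin P450s were mostly not measured. Of 17 genes with a probe, 4 were measured and none met the rule. Cyp39a1, an oxysterol hydroxylase of bile acid synthesis, was at 6.57 and 6.73 in RankL RNA against 7.52 and 7.53 in untreated RNA, a ratio of -0.87 ± 0.11, with RankL RNA above background on 1 array and a second probe at -0.45. Cyp51, the lanosterol demethylase of cholesterol synthesis, was at -0.17 ± 0.41, with further probes at -0.55 and -0.33. The steroid hydroxylase gene Cyp17a1 was at 0.12 ± 0.37 and the cholesterol hydroxylase gene Cyp46a1 at 0.19 ± 0.027. Those not measured included the vitamin D enzymes Cyp2r1, Cyp24a1, Cyp27a1 and Cyp27b1, the retinoic acid hydroxylases Cyp26a1 and Cyp26b1, the bile acid enzymes Cyp7a1, Cyp7b1 and Cyp8b1, and the steroid-forming Cyp11a1, Cyp11b2, Cyp19a1 and Cyp21a1. Cyp20a1, a P450 of unknown substrate, was at -0.22 ± 0.17.

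Of the 36 genes not measured, 34 had no array on which their brightest probe was well above background, and Cyp27b1 and Cyp4f41-ps were above it in RankL RNA on 1 array. Their log2 ratios ran from -0.20 to 0.26, which says only that both RNAs were dim.

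Position among neighbours is a feature that the choice of genes did not use. The runs named below were picked with the calls known, so they are descriptions only. In the RefSeq order of protein-coding genes, P450 genes formed 13 runs of adjacent genes, and 7 of these held at least 3 measured genes. In the run Cyp2s1, Cyp2b10, Cyp2b13 and Cyp2b9, 4 of 4 genes were lower, from -1.88 to -1.45, beside 2.5% of all measured genes. Cyp2a4 lies farther along the same chromosome, between Cyp2b9 and Cyp2a5, and belongs to no run. It was higher, at 2.02 by its brightest measured probe and 0.24 by another. In the Cyp3a run of 8 genes, the 5 measured ones all lay below 0 and 3 were lower, while Cyp3a13 is not among them. Probes of Cyp2b9 and Cyp2b13, and of the close Cyp3a relatives, may share signal, so the genes of these runs need not be separate readings.

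Adjacent genes also differed. In the Cyp2c run of 14 genes, Cyp2c65 and Cyp2c66 lay between Cyp2c55 at 0.80 and Cyp2c29 at -0.28. Cyp2d34, at 1.59, lay directly beside Cyp2d12, at -1.40, in a run that also held Cyp2d26 at -1.70. In the run that holds Cyp2a5, the only other measured gene was Cyp2b19, at -0.06, and probes of Cyp2b23, Cyp2g1, Cyp2a22, Cyp2a12 and Cyp2f2 were dim. Cyp4f16 at -1.04 and Cyp4f15 at 1.1 belonged to 1 run of 6 genes.

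**Figure D3:**
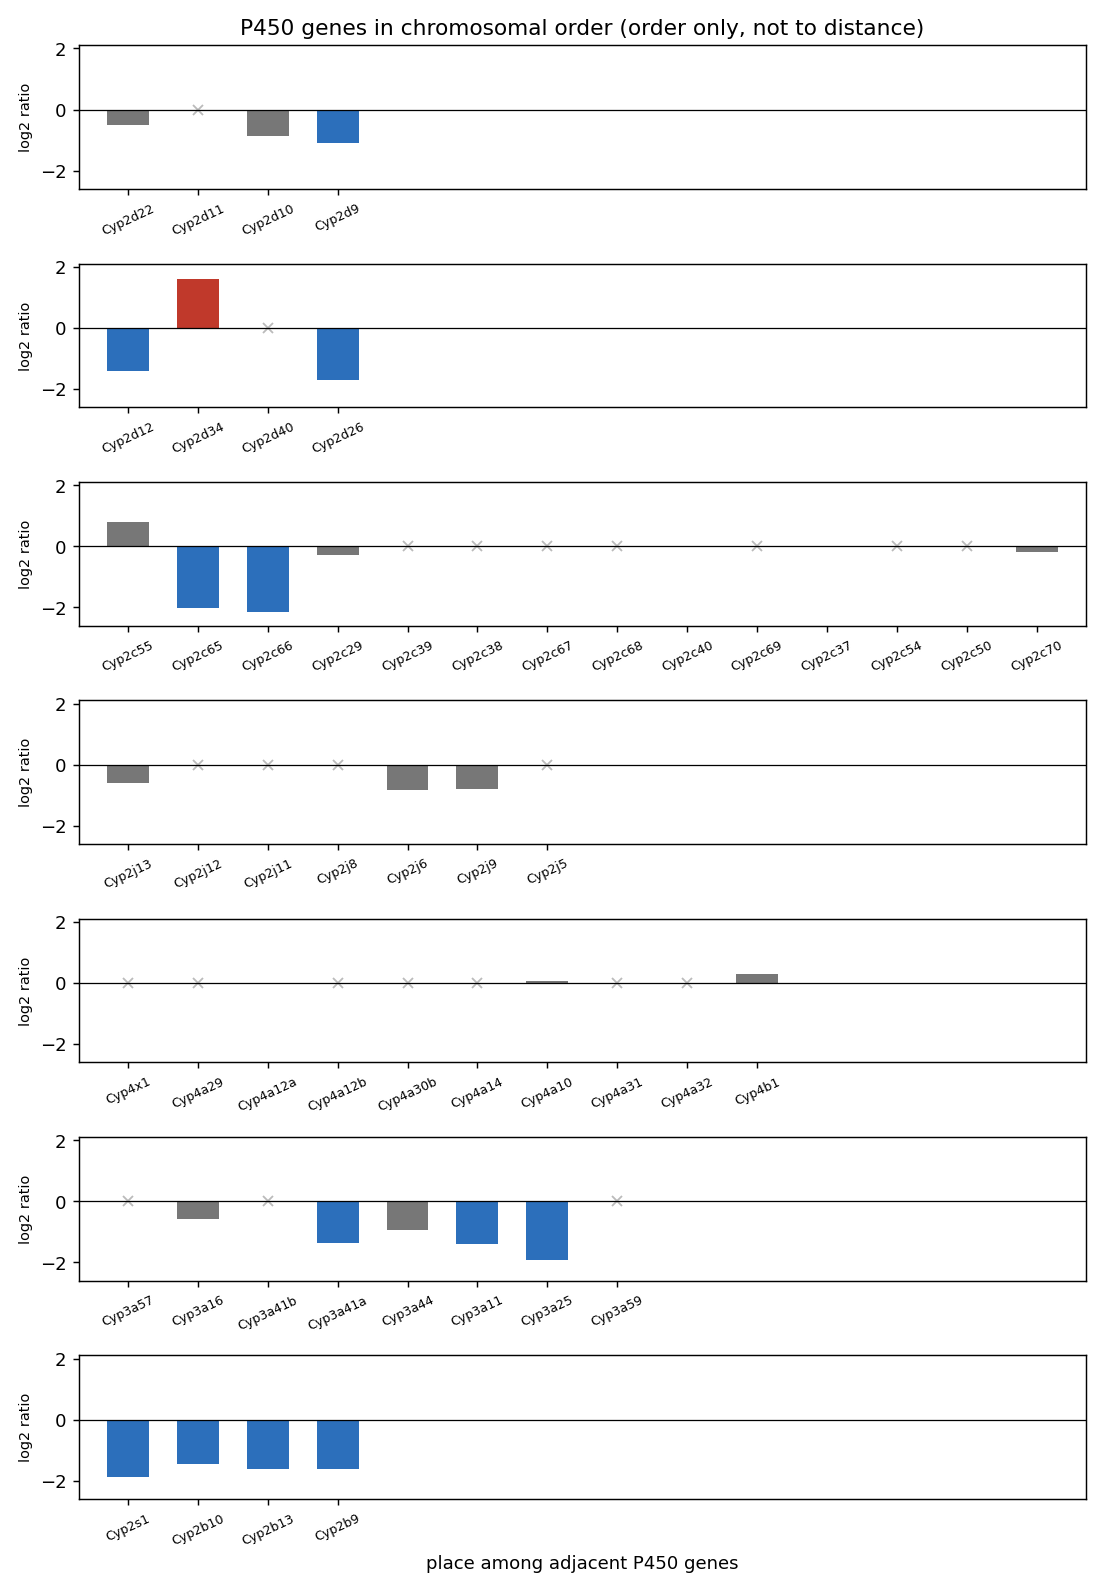
Mean log2 ratio of RankL over untreated for P450 genes in the 7 chromosomal runs with at least 3 measured genes, placed in gene order and not to distance, with red for higher, blue for lower, grey for neither and crosses for genes without a measured probe. All 4 genes of the run from Cyp2s1 to Cyp2b9 are lower, whereas Cyp2c65 and Cyp2c66 stand between Cyp2c55 and Cyp2c29, which did not meet the rule, and Cyp2d34 stands beside Cyp2d12 with the opposite sign. Cyp2c37, Cyp2c40 and Cyp4a12a lie so near 0 that their bars are barely visible.

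The upstream sequences of the P450 genes were searched for short motifs over 250 bases before the start, and 60 of the 81 genes had an entry. CAAAGTCC, a shortened form chosen after the sequences had been seen, stood upstream of 2 of 3 higher genes (Cyp2a4 and Cyp2a5) and 4 of 12 lower genes (Cyp2c65, Cyp2c66, Cyp3a11 and Cyp3a41a). It also stood upstream of 4 of 22 measured genes that were neither, 1 of 23 genes not measured, and 1.2% of all 32851 windows of this length. The fuller site CAAAGTCCA, which overlaps it, was found in 0 of 3 higher genes, 3 of 12 lower, 3 of 22 neither, 1 of 23 not measured and 0.384% of all windows. AGGTCA was found upstream of 4 of 12 lower genes, 0 of 3 higher genes, 4 of 22 neither, 7 of 23 not measured and 14.0% of all windows. TATAAA was found in 2 of 3 higher genes, 6 of 12 lower, 7 of 22 neither, 9 of 23 not measured and 12.4% of all windows. GCGTG was found in 0 of 3, 2 of 12, 8 of 22, 4 of 23 and 28.2%, in the same order. TATAAA and AGGTCA were thus found in genes that met the rule and in genes that did not. The Ets-type motif AGGAAGT was found in 2 of 3 higher genes, 3 of 12 lower, 4 of 22 neither, 1 of 23 not measured and 7.69% of all windows. A loose outline of an NF-kB site was found in 2 of 3 higher genes, 6 of 12 lower, 7 of 22 neither, 14 of 23 not measured and 45.8% of all windows. All were searched on both strands. Near copies share these matches by descent, so they are not independent counts, and a match of letters does not show that a factor binds.

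P450 enzymes depend on electron donors and on haem, and none of the 16 genes of a list of these met the rule, all of them measured. Over all measured genes 5.47% were higher and 2.5% lower, and counts in lists this small are descriptions only. Por was at -0.47 ± 0.091, the cytochrome b5 gene Cyb5a at -0.42 ± 0.26, and the mitochondrial ferredoxin gene Fdx1 at -0.82 ± 0.12 with further probes at -0.95 and -0.70. Alas1, the first enzyme of haem synthesis, lay on the other side of 0 at 0.83 ± 0.21 (0.54 by its other probe), and Alad, Cpox and Urod of the same pathway were at -0.86 ± 0.36, -0.80 ± 0.029 and -0.51 ± 0.071. Hmox1, which degrades haem, was at 0.64 ± 0.30. The list's median was -0.17, and it lay on either side of 0 on the arrays, at 0.02 on array 1 and -0.36 on array 2.

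Among 14 measured receptors and factors known to control P450 genes, 1 was higher and 2 lower, beside 5.47% and 2.5% of all measured genes. A count this small is not read as a result about the list. Ahr, the aryl hydrocarbon receptor, was higher at 2.36 on array 1 and 2.34 on array 2. Its DNA-binding partner Arnt was at 0.19 ± 0.074 (-0.10 by its other probe), and the repressor Ahrr was not measured. Vdr, the vitamin D receptor, was lower at -2.05 and -1.91, and Nr1h4, the bile acid receptor, at -1.81 and -1.69. The xenobiotic receptors Nr1i2 and Nr1i3 were at 0.14 ± 0.39 and -0.60 ± 0.36, and the fatty acid receptor Ppara at -0.79 ± 0.22. Hnf4a was at 0.12 on each array by its brightest probe, and its further probes gave -0.24 and 0.03. The list's median was -0.18.

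Of 12 measured genes of enzymes that work next to P450s, 2 were higher and 2 lower, beside 5.47% and 2.5% of all measured genes. The list's median was -0.11, positive on array 1 (0.11) and negative on array 2 (-0.20). Ephx2, which opens fatty acid epoxides, was at 0.97 on array 1 and 1.25 on array 2, and Hsd3b7 of bile acid synthesis at 1.37 and 1.00. The quinone reductase gene Nqo1 was lower at -1.17 and -1.43, and Aldh1a1, which makes retinoic acid, at -1.15 and -1.36. Tiparp, like Nqo1 and Cyp1a1 a known target of the aryl hydrocarbon receptor, was at -0.79 ± 0.22. Of these 3 targets Nqo1 and Tiparp lay below 0. Cyp1a1 lay above it, short of the rule and with untreated RNA not well above background. The 3 are examples and not a full list of targets, and a part of Ahr in their ratios was not tested.

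**Figure D4:**
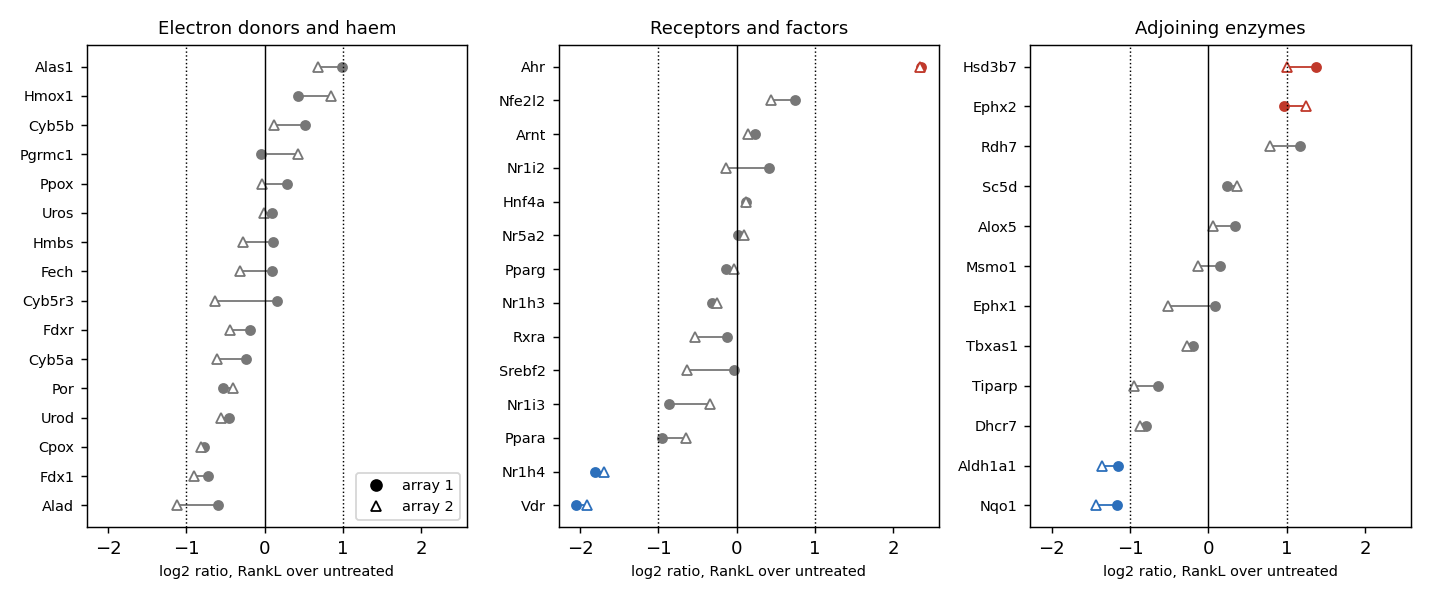
Log2 ratio of RankL over untreated for measured genes of electron donors and haem (16), receptors and factors (14) and adjoining enzymes (12), with circles for array 1, open triangles for array 2, red for higher, blue for lower and grey for neither. Ahr stands apart at 2.35, Vdr and Nr1h4 lie at -1.98 and -1.75, and no gene of the first panel meets the rule.

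Marker genes showed that the cultures also differed in cell-type transcripts. The marker counts below stand beside 5.47% of all measured genes higher and 2.5% lower. All 8 listed M cell markers were higher, with a summed level on the linear scale of 62228 and 64500 in RankL RNA and 2845 and 2285 in untreated RNA. Of 17 measured enterocyte markers, 8 were higher and 1, Fabp1, lower, with summed levels of 293882 and 297801 against 170693 and 189366. Of 6 measured Lgr5 stem cell markers 3 were lower (Lgr5, Smoc2 and Cdca7), with sums of 3698 and 3616 against 7723 and 7736. The part of these shifts in the P450 differences was not tested. Of the liver markers only Tat was measured, at 0.23 ± 0.080, and Alb, Ttr, Apoh and Ahsg were dim. No leukocyte or endothelial marker was measured. Of 6 mesenchyme markers 3 were measured and none met the rule. Col1a2, well above background in both RNAs, was at 0.17 ± 0.17, and Vim at -0.07 ± 0.0077. Pdgfrb was at 0.74 on array 1 and 1.07 on array 2, on average 1.87-fold higher in RankL RNA, with untreated RNA not well above background. Col1a1, Col3a1 and Pdgfra were dim in both RNAs. Of 5 Paneth cell markers 2 were higher and 1 lower, of 8 goblet cell markers 3 and 2, of 9 enteroendocrine markers 2 and 0, and of 4 measured tuft cell markers 1 and 0. Over all probes, between 38.3% and 43.4% of spots were well above background in each RNA and array.

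The scanner software's own ratios come from the same spots and lack the offset used here. They gave the same direction for all 17 genes that were higher or lower, and all 17 met the rule there too. The offset draws ratios of dim probes towards 0. The software's mean log2 ratio was 6.61 for Cyp2a5, 5.04 for Cyp2a4, 3.08 for Cyp2d34, 3.03 for Cyp4f15 and -4.07 for Cyp3a25. For the bright Cyp2c66 and Cyp2d26 it was -2.35 and -1.75, close to -2.15 and -1.70. Under the software's ratios 6 genes were higher and 21 lower, which is 13.3% and 46.7% of the P450 genes, beside 1148 higher (8.92%) and 781 lower (6.07%) over all genes. The added genes were Cyp1a1 and Cyp2c55 (higher) and Cyp2d22, Cyp2j6, Cyp2j9, Cyp2j13, Cyp2u1, Cyp3a16, Cyp3a44 and Cyp39a1 (lower), so all 3 measured Cyp2j genes met the rule under that setting.

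**Figure D5:**
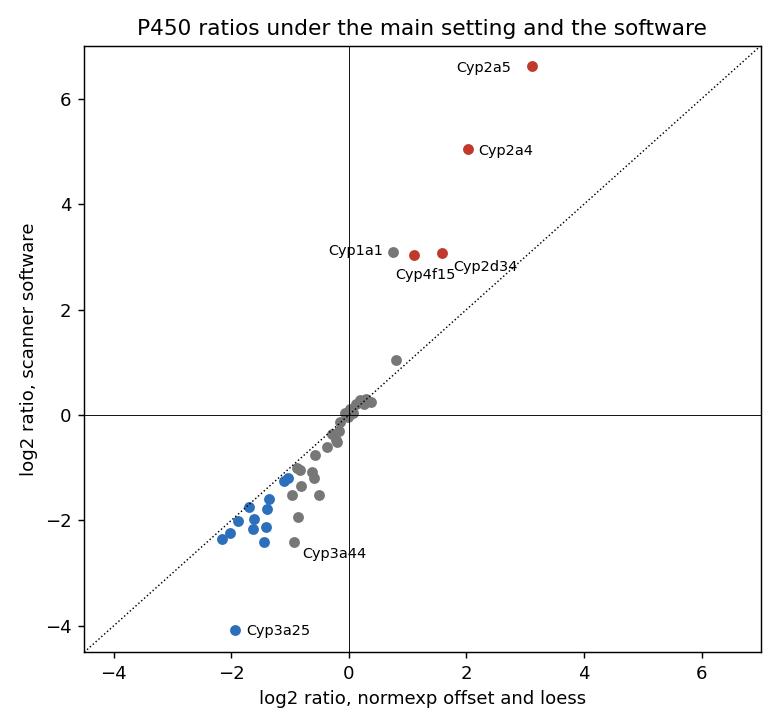
Mean log2 ratio of each of the 45 measured P450 genes with the offset and loess (horizontal) and in the scanner software's ratios (vertical), with red for higher, blue for lower and grey for neither under the first and a dotted line of equality. Bright genes lie near the line, while Cyp2a5 (3.11 and 6.61), Cyp1a1 (0.75 and 3.10) and Cyp3a25 (-1.93 and -4.07), dim in 1 RNA, lie far from it.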

How the data were processed

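Total RNA was labelled with Cy3 or Cy5 and hybridised to dual-colour Agilent arrays, per the labels. The deposited scanner files hold median spot and local background intensity in both channels without normalization, log10 ratios of red over green that the software background-subtracted and dye-normalized, and flags of 0 or 1, per the file headers. They name Feature Extraction 10.5.1.1, and the submitters' processing notes 8.5.1.1. The authors deposited the same log10 ratios as a matrix, all signed as RankL over untreated (largest difference 5e-06, median 0 in both columns).

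Background was corrected by normexp (offset 50) and ratios by loess within each array, control spots at weight 0, in limma 3.58.1 under R 4.3.3. Control and outlier-flagged spots were left out, spots of a probe averaged, all ratios signed as RankL over untreated, and the 2 arrays averaged as 1 technical replicate. Levels were then scaled by Aquantile. Symbols came from RefSeq accessions (GRCm38.p6) for 26918 of 41174 probes. A gene took its brightest measured probe, and every measured P450 gene is named. Of 10 genes with several measured probes, 4 differed between probes by over 0.5. Bounds apply to this setting. Probe sequences were not used here, so binding to related transcripts was not checked. Upstream sequences were aligned with Biopython 1.88. Genes, lists, rules and motifs were chosen with earlier results of these data known. The ratio step was tested on simulated data with known ratios set in brighter probes only, so the test does not cover dim probes. Single-array, normalization, offset, filter and probe-choice alternatives were run. No column was left unused.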

Additional observations from a re-analysis of the deposited data

How the results depend on the processing

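All 17 P450 genes that were higher or lower kept their direction under every alternative that gave them a value. On single arrays the rule had already fixed that direction, and every alternative used the same arrays. Leaving out 1 array gave 3 to 4 P450 genes higher and 12 to 15 lower. Over all measured genes either array alone gave 731 higher and 330 to 370 lower, beside 704 and 322 with both arrays. The P450 median on single arrays was -0.48 to -0.46, and medians were -0.19 (Cyp2c) and -0.02 to 0.02 (Cyp4). The receptor list median was -0.19 to -0.07, and 0 to 1 electron donor genes were lower. Cyp4f16 lost its call on array 2 alone, and Cyp2d9 and Cyp4f15 on array 1 alone. Probes well above background in both RNAs gave 0 of 35 genes higher (4 of 45 before) and 12 lower, beside 533 higher and 284 lower of 11485 genes over the whole array. Cyp2a5, Cyp2d34, Cyp4f15 and Cyp3a25 drop out there, and Cyp2a4 is read by its probe at 0.24. The medians were then -0.59 (all P450), -0.24 (Cyp2c), -1.25 (Cyp2d), -0.96 (other Cyp2) and -0.15 (Cyp4). With no filter on dim probes they were -0.03 (all), 0.18 (Cyp1), -0.20 (Cyp2c), -0.62 (Cyp2j) and 0.10 (other Cyp2). The mean over probes gave -0.47 (all), -1.29 (Cyp2b), -0.83 (Cyp2d), -0.62 (Cyp2j) and 0.17 (other Cyp2), and Cyp4f16 lost its call. Median centring in place of loess gave -0.53 (all), -0.22 (Cyp2c) and -0.27 (receptor list), with 1 electron donor gene lower and 1 adjoining enzyme higher. An offset of 16 gave -0.62 (all), 1.27 (Cyp1), -1.74 (Cyp2b), -0.29 (Cyp2c), 0.89 (other Cyp2) and -1.40 (Cyp3a). The software's ratios gave 21 P450 genes lower, 1148 genes higher and 781 lower over the whole array, 1 electron donor gene higher, and medians of -0.76 (all), 3.10 (Cyp1), -2.07 (Cyp2b), -0.36 (Cyp2c), -1.38 (Cyp2d), -1.08 (Cyp2j), 1.77 (other Cyp2), -1.86 (Cyp3a), -0.47 (Cyp20a1) and -0.27 (receptor list). The cause of these shifts was not tested beyond the construction of each setting. No paired analysis was possible because the arrays hold 1 RNA pair, and 1 replicate allows no test of any P450 difference.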
